A study of Mus musculus with 6 samples.

Results

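Lysosomal hydrolases and membrane proteins were followed as a set of 42 genes, chosen by symbol, and all 42 were found among the 22984 genes of the deposited table. The series measured RNA in mesenchymal stem cells of mouse bone marrow (BMSCs), a stromal population that grows attached to plastic and gives rise to bone, fat and cartilage. In the design text they are O-BMSCs, a prefix it leaves unexplained. It compared 3 Grx2+/+ libraries (wild type) with 3 Grx2-/- libraries (knockout), and the labels give no treatment, age, sex, strain or passage. Grx2, glutaredoxin 2, is a small mitochondrial enzyme that uses glutathione to reduce disulfides, and its gene is Glrx2. The labels do not say how the knockout was made or whether each library is its own animal or culture, and p-values here rest on the spread among these libraries alone, which may be technical.

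Lysosomes are acidic organelles in which hydrolases break down proteins, lipids, glycans and glycosaminoglycans that arrive by endocytosis, phagocytosis and autophagy. Most soluble hydrolases are made in the endoplasmic reticulum, tagged with mannose 6-phosphate in the Golgi and carried to lysosomes by mannose 6-phosphate receptors, and a proton pump, the V-ATPase, keeps the lumen acidic. TFEB and its relatives TFE3 and MITF are transcription factors that bind a site known as the CLEAR element in many lysosomal genes. In marrow, macrophages and osteoclasts are rich in lysosomal enzymes, while stromal and bone-forming cells use them for matrix turnover.

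Because TFEB and its relatives bind near gene starts, the promoters of the members were searched for the core of the CLEAR element, TCACGTGA, and for the E-box that it contains, CACGTG. Both read the same on either strand. The sequences came from RefSeq (build GRCm38.p6) and ran from 250 bases before to 50 after each annotated start. The table held 38 members; Ctsb, Ctsh, Asah1 and Npc1 had no entry. The core was in 4 of the 38 (10.5%), namely Ctsa, Ctsd, Gla and Mcoln1, against 0.974% of all 32851 promoters and 2.41% of the tested genes in the table. The E-box was in 13 of 38 (34.2%), against 7.15% of all promoters and 12.1% of tested genes. Windows around matches are printed for the 4 genes with the core, for Lamp1 with 4 E-boxes in 1 stretch, and for 2 genes that moved in opposite directions. Capitals mark the core or the E-box.
Ctsd, chr7:142387908-142387937, minus strand: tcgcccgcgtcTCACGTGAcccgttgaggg
Gla, chrX:134601215-134601244, minus strand: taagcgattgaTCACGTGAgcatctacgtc
Gla, chrX:134601182-134601211, minus strand: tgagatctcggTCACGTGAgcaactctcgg
Ctsa, chr2:164833743-164833772, plus strand: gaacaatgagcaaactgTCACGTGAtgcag
Mcoln1, chr8:3500462-3500491, plus strand: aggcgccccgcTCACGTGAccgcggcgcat
Lamp1, chr8:13159095-13159155, plus strand: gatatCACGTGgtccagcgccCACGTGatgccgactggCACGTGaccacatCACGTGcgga
Sgsh, chr11:119355522-119355551, minus strand: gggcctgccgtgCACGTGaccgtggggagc
Lgmn, chr12:102439124-102439153, minus strand: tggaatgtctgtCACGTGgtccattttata
A match is a description of the sequence and not a measured binding site. The core lay 99 bases before the start of Ctsd, 228 and 195 before Gla, 46 before Mcoln1 and 13 before Ctsa. Each of these windows shares bases with an exon in the GENCODE vM21 annotation, and the distances refer to the RefSeq starts. All 4 genes with the core were higher in knockout, as were 27 of the 34 without it. Of the 13 genes with an E-box, 11 rose, Lgmn fell and Glb1 did not pass the test. Their median log2 fold change was 0.36, and that of the 25 without an E-box was 0.48. For the core the order was the reverse, 0.57 in the 4 genes with it and 0.42 in the 34 without it. These differences were not tested.

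The depth, worked back from the deposited values, was 40797879 to 41794919 reads per library, and a member had between 194 reads (Tfeb, in a wild type library) and 137980 (Ctsb, in a knockout library). Glrx2 was at 3.57, 3.74 and 3.54 FPKM (fragments scaled for gene length and for the reads of the library) in wild type and at 0.00461, 0 and 0 in knockout replicates 1 to 3. Of the mesenchymal stromal markers, Pdgfrb was present in both genotypes and lower in knockout (wild type 59.2 FPKM, knockout 45.0). Thy1 was higher in knockout (11.9 and 167) and Lepr was near 0 in knockout (3.83 and 0.0351). Lepr passed the filter on low values (a mean of at least 1 FPKM) only through the wild type libraries, so its direction was set by the filter. The 14 tested markers of this list moved in both directions: Nt5e fell (10.8 to 2.10 FPKM) and Vcam1 rose (15.3 to 56.8). Their sum, most of it from Col1a1 and Col1a2, was 7930 to 9040 FPKM in wild type and 5786 to 6790 in knockout. Leukocyte transcripts were present as well: Ptprc, which encodes the pan-leukocyte protein CD45, had a mean of 4.80 FPKM in the wild type and of 10.7 in the knockout libraries. Of the libraries, wild type replicate 2 and knockout replicate 1 were the least like the others of their genotype. In bulk samples such as these, a change in the number of cells of a type and a change in RNA per cell cannot be told apart.

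Most lysosomal genes were higher in the knockout libraries. Of the 42 members, 34 rose, 4 fell (Ctsh, Lgmn, Ctsc and Cd63) and 4 did not pass the test (Tpp1, Psap, Glb1 and Idua), by limma on log2(FPKM + 1) with a Benjamini-Hochberg adjusted p under 0.05 over the 11083 genes with a mean of at least 1 FPKM. Among all tested genes 67.4% passed, 42.7% as higher and 24.6% as lower, whereas 81.0% of the members were higher and 9.52% lower. The median log2 fold change of the members, knockout over wild type, was 0.42, and that of all tested genes was 0.085. The size of the changes was moderate: 15 members rose at least 1.5-fold in mean FPKM and 2 at least 2-fold, where 17.1% and 9.07% of all tested genes did. In 35 members every knockout library lay above every wild type library, in 4 every one lay below, and in 3 the groups overlapped, while 45.7% of tested genes had all knockout libraries above and 73.1% did not overlap in either direction. Tfeb passed the filter on low values only through the knockout libraries, and without it 33 of 41 members rose.

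**Figure D1:**
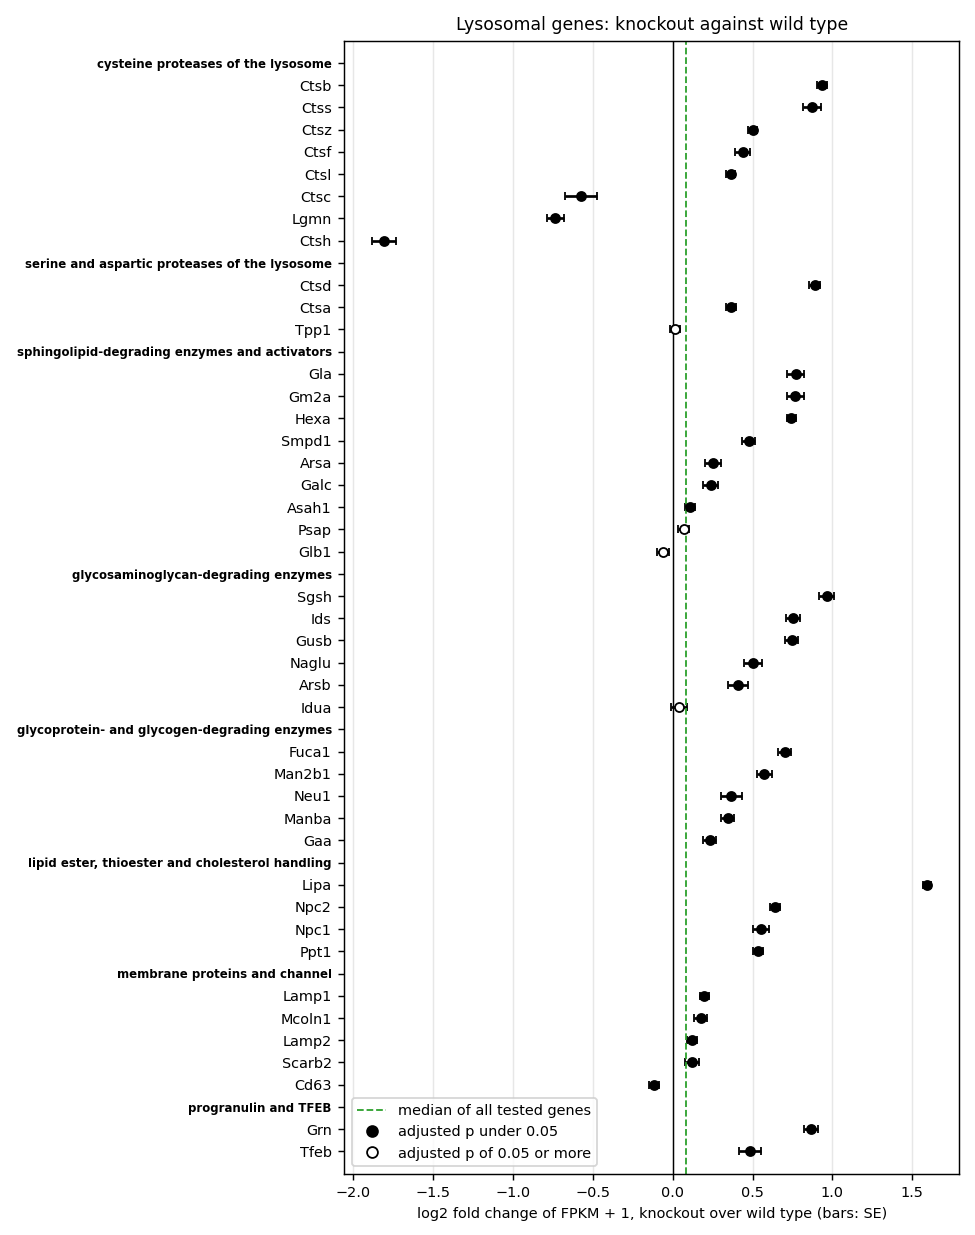
Log2 fold change of FPKM + 1 (knockout over wild type, horizontal axis) of each lysosomal gene, ordered by role, with bars for the SE and the dashed line at the median of all tested genes (0.085). Filled points passed the test; 34 lie to the right of 0, Lipa furthest at 1.59, and Ctsh lies furthest to the left at -1.81.

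Scaling between libraries bears on the smallest of these changes. Under median-of-ratios scaling 30 members rose and 5 fell; quantile normalization gave 30 and 6. Quantile normalization moved the median of all tested genes from 0.085 to -0.026 and turned the split of all calls from 4737 higher and 2728 lower to 3413 and 3945; with median-of-ratios scaling it was 3797 and 3571. Relative to the median of all tested genes, the median of the members was 0.34 as reported and 0.33 under either scaling. Of the 38 members that passed, 33 passed in the same direction under each of the 17 alternatives that gave them a value; the other 5 were Arsa, Asah1, Scarb2, Lamp2 and Mcoln1.

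The cysteine proteases of the lysosome moved in both directions: 5 of 8 rose and 3 fell. Ctsb encodes cathepsin B, a broad endopeptidase that also cuts dipeptides from the ends of proteins. It reached 355, 365 and 359 FPKM in replicates 1 to 3 of wild type, and 696, 681 and 688 in those of knockout. All knockout libraries stood near 1.9 times the wild type level (ratio of means 1.91, log2 fold change 0.94 ± 0.029 SE, limma adjusted p = 9.12e-08). Ctsh, cathepsin H, mainly an aminopeptidase, went the other way, from 71.2, 59.1 and 65.0 FPKM in wild type to 17.9, 19.2 and 16.6 in knockout. Its groups were far apart (-1.81 ± 0.075, adjusted p = 3.65e-07 by limma), and it was the largest fall among the members. Ctss, cathepsin S, which is known for antigen processing in myeloid cells, rose from 124 ± 8.09 FPKM (SD, n = 3 here and below) to 227 ± 12.6. Ctsz rose from 153 ± 1.39 to 217 ± 3.70, Ctsf from 8.08 ± 0.196 to 11.3 ± 0.406, and Ctsl, cathepsin L, from 225 ± 2.76 to 289.9 ± 6.24. Lgmn, legumain, an asparaginyl endopeptidase that processes other cathepsins, fell from 138 ± 2.32 to 82.4 ± 6.35 FPKM. Ctsc, cathepsin C, the dipeptidyl peptidase that activates granule serine proteases, fell from 11.4 ± 0.311 to 7.38 ± 1.26. Neutrophil markers, whose granule proteases Ctsc activates, were lower in knockout in all 9 tested members of their list (summed level 924 to 2679 FPKM in wild type and 4.71 to 6.95 in knockout, with Ly6g and Retnlg at 0 in knockout). Of these 9, 7 passed the filter on low values only through the wild type libraries, so their direction was set by the filter. Their part in the fall of Ctsc was not tested.

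Ctsd carried the highest level of any member. It encodes cathepsin D, the main aspartic protease of lysosomes, and was at 793, 821 and 797 FPKM in wild type and 1524, 1469.5 and 1474 in knockout. The knockout libraries lay far above the wild type ones, and the log2 fold change was 0.89 ± 0.033 (limma adjusted p = 1.97e-07). Ctsa, a serine carboxypeptidase that also protects beta-galactosidase and neuraminidase in a complex, rose from 80.9 ± 1.81 to 104 ± 1.45 FPKM. Tpp1, tripeptidyl peptidase 1, was at 48.8, 48.7 and 49.5 FPKM in wild type and 51.0, 48.9 and 48.9 in knockout. Its groups overlapped (0.016 ± 0.032, adjusted p = 0.681 by limma), and its sign turned under several alternatives, past the threshold with quantile normalization (-0.099, adjusted p = 0.033).

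Among enzymes and activators of sphingolipid breakdown, 7 of 9 rose and 2 did not pass, although Asah1 passed under neither scaling alternative (with quantile normalization its sign turned, to -0.039) and Arsa lost its call with quantile normalization. Gla, alpha-galactosidase A, which removes terminal galactose from globotriaosylceramide, was at 10.8, 12.3 and 11.5 FPKM in wild type and 21.0, 20.0 and 20.2 in knockout. The knockout libraries lay well above the wild type ones (0.77 ± 0.053, limma adjusted p = 5.49e-06). Hexa, the alpha subunit of beta-hexosaminidase, and Gm2a, the activator that presents GM2 ganglioside to it, rose together, from 98.0 ± 1.56 to 165 ± 1.90 FPKM and from 10.3 ± 0.430 to 18.3 ± 0.957. Smpd1, acid sphingomyelinase, rose from 17.8 ± 0.793 to 25.2 ± 0.138 FPKM. Smaller rises were seen for Galc, galactosylceramidase (5.37 to 6.51 FPKM), Arsa, arylsulfatase A (13.8 to 16.7), and Asah1, acid ceramidase (55.3 to 59.6).

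Psap, the precursor of the saposins that assist several of these enzymes, was at 588, 630.3 and 609 FPKM in wild type and 640.2, 634 and 640.4 in knockout. The groups did not overlap, but wild type replicate 2 came close to the lowest knockout library and the change did not pass (0.068 ± 0.034, limma adjusted p = 0.112). Its value depended on the scaling: it passed with quantile normalization (0.14, adjusted p = 0.00956 by limma) and its sign turned with median-of-ratios scaling (-0.023, adjusted p = 0.557). It also passed without both libraries that stand apart (0.091, adjusted p = 0.029 by limma). Glb1, acid beta-galactosidase, was at 29.3, 27.4 and 28.8 FPKM in wild type and 26.7, 27.5 and 27.6 in knockout. Wild type replicate 2 lay among the knockout libraries (-0.062 ± 0.038, limma adjusted p = 0.182). Glb1 passed as lower with median-of-ratios scaling (-0.15) and quantile normalization (-0.19).

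Of 6 enzymes that degrade glycosaminoglycans, 5 rose and 1 did not pass. Sgsh, the sulfamidase of heparan sulfate breakdown, was at 5.55, 5.78 and 5.45 FPKM in wild type and 11.4, 12.2 and 11.9 in knockout. It was the member with the second largest rise (ratio 2.12, log2 fold change 0.96 ± 0.046, limma adjusted p = 7.68e-07). Gusb, beta-glucuronidase, whose mean over all libraries was the highest of the 6, was at 15.2, 15.4 and 16.2 FPKM in wild type and 25.9, 27.4 and 27.1 in knockout. Ids, iduronate 2-sulfatase, rose from 13.5 ± 0.196 to 23.4 ± 1.17 FPKM, Naglu, alpha-N-acetylglucosaminidase, from 12.3 ± 0.808 to 17.8 ± 0.932, and Arsb, arylsulfatase B, from 16.7 ± 1.22 to 22.5 ± 1.46. Idua, alpha-L-iduronidase, which acts next to Ids in the same pathway, was at 4.46, 4.33 and 4.57 FPKM in wild type and 4.67, 4.39 and 4.75 in knockout. Its groups overlapped (0.038 ± 0.051, limma adjusted p = 0.530), and its sign turned without passing under both scaling alternatives (-0.036 and -0.070).

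All 5 enzymes of glycoprotein and glycogen breakdown rose. Fuca1, alpha-L-fucosidase, was at 22.5, 22.3 and 21.7 FPKM in wild type and 35.1, 38.0 and 37.0 in knockout, a difference many times the spread within groups (0.70 ± 0.040, limma adjusted p = 2.01e-06). Gaa, acid alpha-glucosidase, which degrades glycogen, was at 48.7, 46.0 and 48.4 FPKM in wild type and 58.2, 54.5 and 55.8 in knockout, the smallest change of the 5 (0.23 ± 0.039, adjusted p = 0.00103 by limma). Man2b1 and Manba, the lysosomal alpha- and beta-mannosidases, rose from 25.2 ± 0.677 to 38.0 ± 2.17 and from 8.93 ± 0.0984 to 11.6 ± 0.306 FPKM. Neu1, the lysosomal sialidase, rose from 6.59 ± 0.662 to 8.77 ± 0.242.

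All 4 genes for lipid esters, thioesters and cholesterol rose. Lipa, lysosomal acid lipase, which frees cholesterol and fatty acids from lipoprotein esters, was at 47.9, 48.2 and 47.8 FPKM in wild type and 147, 147 and 146 in knockout. The SD within a genotype was 0.197 FPKM in wild type and 1.01 in the knockout libraries, and the change was the largest rise of any member (ratio 3.06, log2 fold change 1.59 ± 0.027, limma adjusted p = 6.44e-09). Npc2 and Npc1, which pass the freed cholesterol on to the membrane and out of the lysosome, rose with it. Npc2 was at 108, 115 and 112 FPKM in wild type and 171, 178 and 176 in knockout (0.64 ± 0.034), and Npc1 rose from 17.7 ± 0.250 to 26.4 ± 1.64 FPKM. Ppt1, palmitoyl-protein thioesterase 1, was at 27.6, 28.3 and 27.5 FPKM in wild type and 40.4, 41.0 and 40.6 in knockout.

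**Figure D2:**
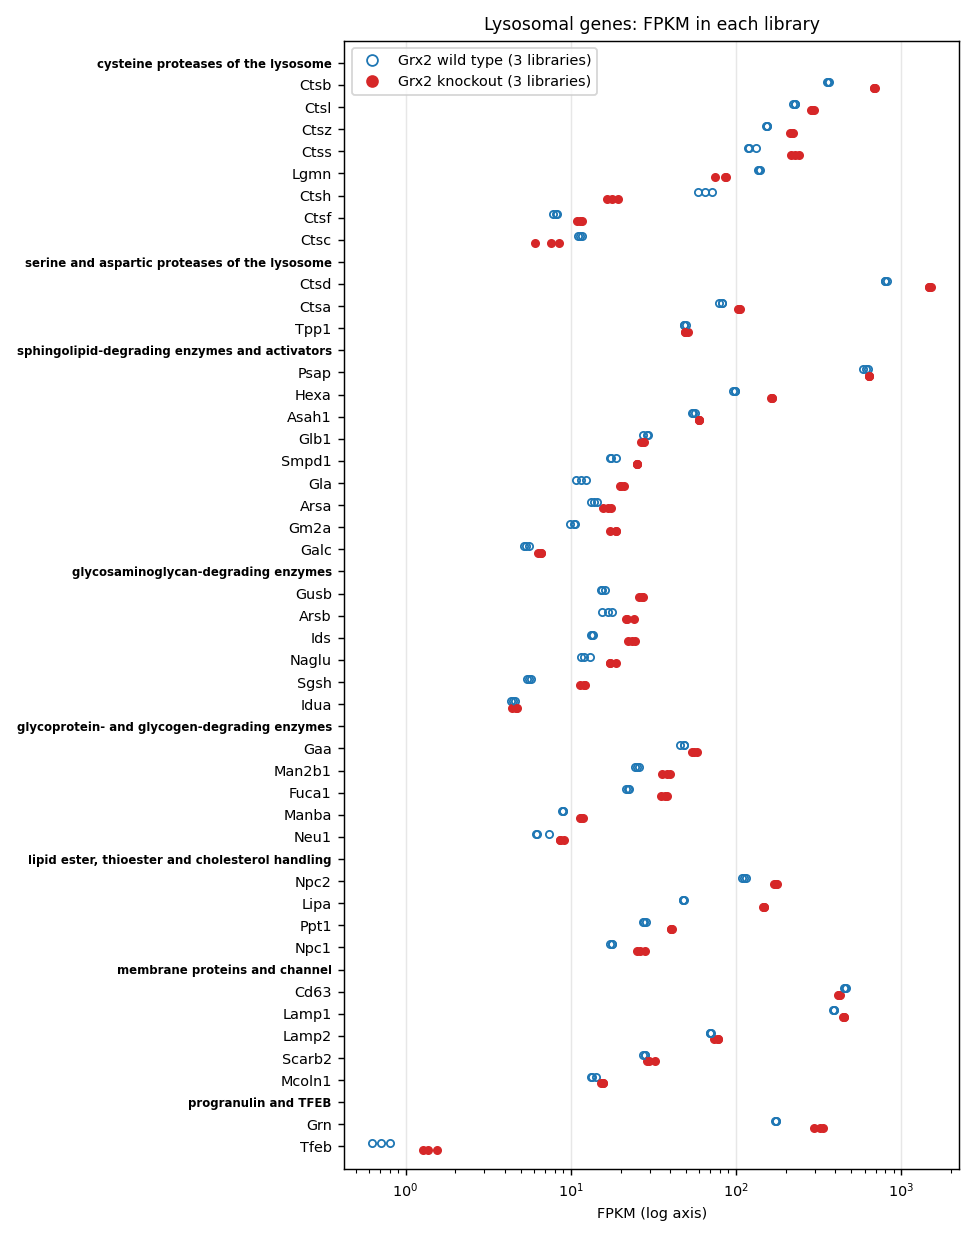
FPKM (horizontal log axis) of each lysosomal gene in every library, ordered by role, with open points for the 3 wild type and filled points for the 3 knockout libraries. Ctsd is highest (793 to 1524 FPKM) and Tfeb lowest (0.63 to 1.55 FPKM), and the groups stand apart for most genes.

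Membrane proteins of the lysosome had the smallest median change of any role. Of 5, 4 rose and 1 fell, but their median log2 fold change of 0.12 was close to that of all tested genes, and the calls of Scarb2, Lamp2 and Mcoln1 were lost under both scaling alternatives, with Scarb2 turning sign (-0.015) under quantile normalization. Cd63, a tetraspanin of late endosomes and exosomes, was at 463, 456 and 450.2 FPKM in wild type and 421, 427 and 414 in knockout. It fell by 0.12 on the log2 scale (SE 0.029, limma adjusted p = 0.00788), with no overlap between groups. Lamp1, a main glycoprotein of the lysosomal membrane, was at 391, 392 and 389 FPKM in wild type and 453, 444 and 449 in knockout. Its rise was small and well separated from the spread (0.20 ± 0.027, limma adjusted p = 0.000323). Lamp2, which also serves chaperone-mediated autophagy, was at 70.2 ± 0.514 and 76.5 ± 2.40 FPKM, and Mcoln1, the lysosomal calcium channel TRPML1, at 13.6 ± 0.476 and 15.5 ± 0.292. Scarb2, the receptor that brings beta-glucocerebrosidase to lysosomes, averaged 27.8 ± 0.453 FPKM in wild type and 30.4 ± 1.78 in the knockout libraries (limma adjusted p = 0.0456), and passed under 6 of 17 alternatives; leaving out any single library other than knockout replicate 2 ended its call (adjusted p up to 0.125). Without knockout replicate 3 the calls of Lamp2 and Asah1 ended as well (limma adjusted p = 0.0545 for Lamp2 and 0.0603 for Asah1), as did that of Asah1 without wild type replicate 3 (0.056).

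Grn, progranulin, a secreted protein that is cut into granulins in lysosomes, was at 175, 175 and 173 FPKM in wild type and 298, 336 and 323 in knockout. Knockout replicate 1 was the lowest of its group, still well above wild type (0.87 ± 0.045, limma adjusted p = 1.22e-06). Tfeb was at 0.630, 0.810 and 0.707 FPKM in wild type and 1.37, 1.28 and 1.55 in knockout, from 194 to 480 reads per library. All knockout libraries were above all wild type libraries (ratio 1.96, log2 fold change 0.48 ± 0.071, limma adjusted p = 0.000466). Tfeb passed the filter on low values only through the knockout libraries, so its direction in this test was set by the filter. The pseudocount understates a change at this level, and with a pseudocount of 0.01 the value was 0.96.

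Summed over the 42 members, the level rose from 4384 ± 42.9 FPKM in wild type to 6120.4 ± 11.0 in knockout, a ratio of 1.40, or 1.31 with median-of-ratios scaling. The exact two-sided permutation p was 0.1, the smallest that 3 against 3 libraries allow. The members made up 1.17% of all FPKM in wild type and 1.58% in knockout. Ctsd alone was 18.3% of the members' sum in wild type and 24.3% in knockout. In wild type the order from the top was Ctsd, Psap, Cd63, Lamp1 and Ctsb, and in knockout it was Ctsd, Ctsb, Psap, Lamp1 and Cd63. By role, the ratio ran from 1.03 for the membrane proteins and 1.15 for the sphingolipid group to 1.83 for progranulin with TFEB and 1.89 for the lipid ester and cholesterol group. The direction for the membrane proteins turned with median-of-ratios scaling (ratio 0.971) and not with quantile normalization (1.04); the sums of the other roles were higher in knockout under both.

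**Figure D3:**
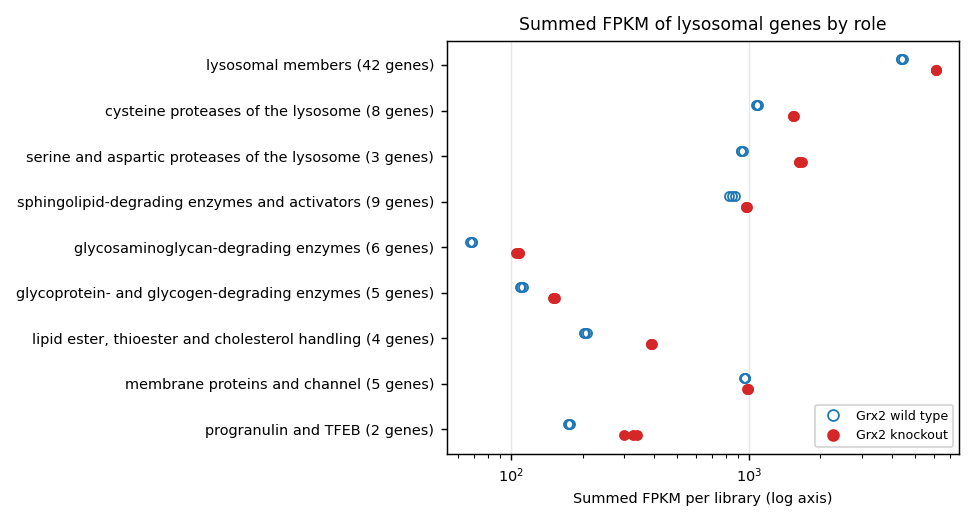
Summed FPKM (horizontal log axis) of the lysosomal genes in each library, for all 42 and for each role, with open points for wild type and filled points for knockout. Knockout libraries lie above wild type ones in every role; the gap is smallest for membrane proteins (959 and 992 FPKM on average), where median-of-ratios scaling turned it (ratio 0.971).

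Other lysosomal genes were taken from lists that hold no member, and their counts stand beside 42.7% higher, 24.6% lower and a median of 0.085 over all tested genes. Of 22 further hydrolases, 14 rose, 3 fell and 5 did not pass (median 0.27). Dnase2a, the DNase of lysosomes, went from 8.50 to 21.0 FPKM and Naaa, an acid amidase of lipid amides, from 5.86 to 13.3, while Ctsk, the collagen-degrading cathepsin K of osteoclasts, fell by 0.40 on the log2 scale and Smpdl3a by 0.35. Of 18 tested V-ATPase subunits and accessory proteins, 13 rose and 3 fell (median 0.33). Atp6v0a1 (0.89 ± 0.044) and the proteolipid subunit Atp6v0c (0.70 ± 0.038) rose most, and Atp6v0d2, a subunit of osteoclasts, and Atp6v1g1 fell (-0.61 and -0.32).

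Of 19 genes that sort and activate lysosomal enzymes, 9 were higher and 6 lower with a median of 0.12, which is near the background. M6pr, the cation-dependent mannose 6-phosphate receptor, rose from 72.5 ± 0.296 to 121 ± 1.91 FPKM, and Gnptab, part of the enzyme that makes the mannose 6-phosphate tag, from 11.6 to 19.2. Sort1, sortilin, a receptor that carries some hydrolases and progranulin without that tag, fell from 7.48 ± 0.257 to 1.53 ± 0.161 FPKM, and Gga2, a sorting adaptor, by 0.25 on the log2 scale. Without wild type replicate 3 only 3 of this list were lower. Of 23 other tested lysosomal membrane proteins, 16 rose and 6 fell (median 0.29). Laptm5, a protein of leukocyte lysosomes, went from 46.9 to 142 FPKM and Mcoln2 from 0.588 to 2.93, the latter tested only through its knockout level, and Litaf and Sidt2 fell (-0.45 and -0.40).

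Of 19 tested regulators (relatives of TFEB, the Ragulator complex, folliculin and mTOR complex 1 with its inhibitors), 13 rose, 0 fell and 6 did not pass by limma (median 0.31), whereas 3 fell with median-of-ratios scaling and 4 with quantile normalization. At an unadjusted p under 0.05 limma also gave 0 lower, and voom on the recovered reads called 1 lower. Mitf (0.669 to 1.92 FPKM) and Tfec (0.569 to 1.53) rose most on the log2 scale, and both passed the filter on low values only through the knockout libraries. Under the filter and so not tested, Rragd went down (0.850 to 0.543 FPKM) and Rragb up (0.168 to 0.772), each with no overlap between groups. Of the cystatins and serpins that inhibit cysteine cathepsins, all 3 tested rose: Cst3, cystatin C, from 212 to 497 FPKM, Cstb, cystatin B, from 169.8 to 313, and Serpinb6a by 0.19 on the log2 scale.

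**Figure D4:**
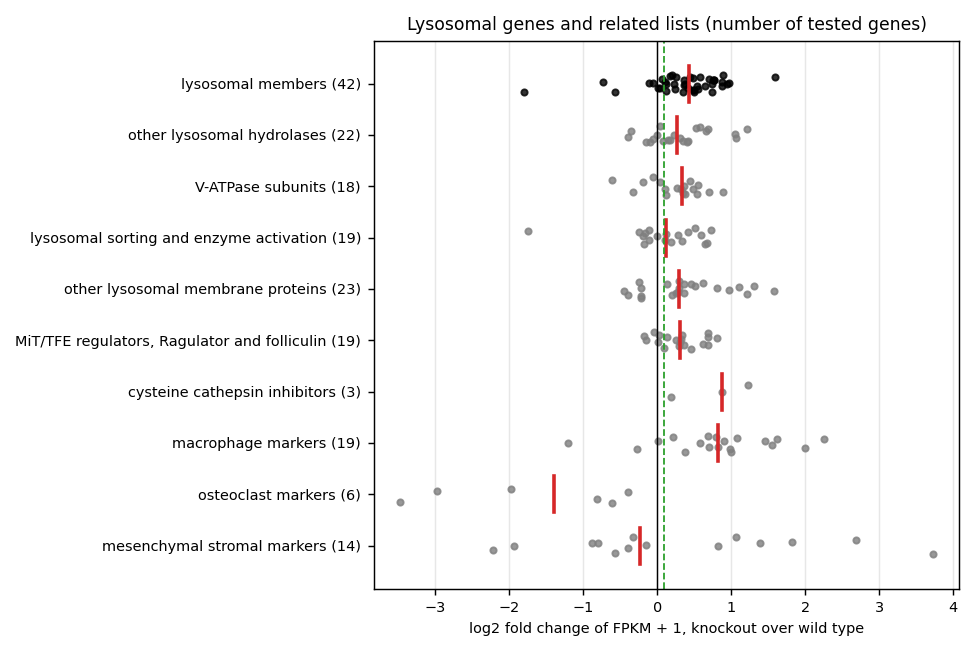
Log2 fold change of FPKM + 1 (knockout over wild type, horizontal axis) of each tested gene in the lysosomal set, in related lists and in markers of 3 cell types, with a red bar at each list's median and the dashed line at the median of all tested genes. The lysosomal set has a median of 0.42, the macrophage markers 0.82 and the osteoclast markers -1.40. Some genes passed the filter on low values only through 1 genotype, which set their direction, among them 2 of the 6 osteoclast markers (Acp5 and Mmp9).

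Markers of macrophages, which are rich in lysosomes, moved with these genes. Of 19 tested macrophage markers, 15 rose and 1 fell (median 0.82), and the summed level of the list was 1719 to 1859 FPKM in wild type and 2909 to 3902 in knockout, most of it from Lyz2, lysozyme, itself a lysosomal enzyme of macrophages (1141 to 1283 and 1707 to 2421). Adgre1, the macrophage surface protein F4/80, rose from 24.7 ± 0.614 to 122 ± 13.3 FPKM, and Cd68, itself a lysosomal membrane protein, from 99.8 ± 2.10 to 295 ± 10.4. Mertk, C1qa and Aif1 did not pass. Cd163 was near 0 in both genotypes (at most 0.0381 FPKM in wild type and 0 in all knockout libraries). Clec7a fell (2.62 to 0.567 FPKM), but it passed the filter only through wild type, so its direction was set by the filter. All 6 tested osteoclast markers were lower, among them Acp5, tartrate-resistant acid phosphatase, which went from 13.5 to 0.844 FPKM; 2 of the 6 (Acp5 and Mmp9) passed the filter only through wild type. Dcstamp, needed for osteoclast fusion and under the filter, went the other way, from 0.320 to 1.03 FPKM with no overlap. The sum of all 10 listed was 149 to 173 FPKM in wild type and 83.2 to 94.7 in knockout, most of it from Ctsk (means 100 and 75.9). Calcr was near 0 in both genotypes (at most 0.0126 FPKM in wild type and 0 in knockout). Ctsk and Atp6v0d2, named above, belong to this list as well. All 7 tested osteoblast markers were lower, among them Alpl, alkaline phosphatase (105.5 to 3.66 FPKM), and none was at 0 in every library of a genotype. Their list summed to 1410 to 1571 FPKM in wild type and 619 to 655 in knockout, most of it from Spp1 (means 1164 and 616). Of 7 tested endothelial markers 6 were lower (sum 26.7 to 32.5 FPKM and 5.09 to 5.81), with Tie1 and Cldn5 at 0 in knockout and Tek, under the filter, higher (0.252 to 0.284 FPKM and 0.555 to 0.647). Among these, 2 osteoblast and 5 endothelial markers passed the filter only through wild type. The part of these cell types in the change of the lysosomal genes was not tested.

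Among the knockout libraries the members did not vary as 1 block. Macrophage markers were lowest in knockout replicate 1 and highest in replicate 2, with replicate 3 between them, for 16 of the 20 listed. This order was shared by 13 of the 42 members, namely Ctsc, Ctss, Lgmn, Hexa, Gm2a, Sgsh, Gusb, Fuca1, Man2b1, Ppt1, Npc2, Lamp2 and Grn. The reverse order was seen in 10: Ctsb, Ctsf, Ctsd, Tpp1, Gla, Ids, Gaa, Npc1, Scarb2 and Lamp1. These are orders of 3 libraries, given without a test, and the share of all tested genes with either order was not counted. For most members the differences are small beside those between genotypes. The median coefficient of variation of the members was 2.56% in wild type and 2.86% in knockout, and the highest in either was 17.0%. Where the genotypes differed little this did not hold: Scarb2 ran from 29.1 to 32.4 FPKM among knockout libraries, with group means of 27.8 and 30.4. Without wild type replicate 2 and knockout replicate 1, the libraries that stand apart, 34 members rose and 4 fell.

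Reads of genes that overlap on opposite strands cannot be told apart without a stated strand setting, and those on the same strand not by strand at all. In the GENCODE vM21 annotation, 14 of the 42 members share exon bases with another gene: Ctsb, Ctsl, Ctsz, Ctsa, Ctsd, Galc, Glb1, Arsa, Idua, Sgsh, Arsb, Ppt1, Npc1 and Lamp1. Their values are uncertain to that extent, which was not measured. The overlapping gene is on the same strand for Ctsd, Glb1 and 1 of the 2 of Ctsl; Ppt1 overlaps Cap1, at 204 FPKM on the opposite strand.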

How the data were processed

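The submitters' processing notes name HISAT2, HTSeq, R 3.2.0 and build GRCm39; other versions, annotation, filters and strand were not given in the sources used here. The authors deposited FPKM values for 22984 genes. All other values were computed from these. FPKM corrects for depth and gene length, not for shifts in composition. Whole reads were recovered for 22982 genes (99.99%, tolerance 0.001 reads). Genes with a mean of at least 1 FPKM (11083) were fitted as log2(FPKM + 1) with limma 3.58.1 in R 4.3.3 (lmFit, eBayes with trend; two-sided; Benjamini-Hochberg over all tested genes, threshold 0.05). The fit was tested on simulated reads in which few genes changed, in both directions. In these data most genes passed, so that run does not test the scaling between libraries. Alternatives covered pseudocounts of 0.1 and 0.01, no filter, a mean of at least 5 FPKM, 2 scalings, no trend, robust estimation (statmod 1.5.0), the replicate block and each library left out; voom on recovered reads and a fit without 2 libraries that stand apart were chosen after seeing the data. Values in every library are given, in each role, for the member of highest level and those of largest and smallest log2 fold change, and for Tfeb; in related lists the 2 largest called changes in each direction are named. Members and lists were chosen with earlier results of these data known. Promoters came from RefSeq (GRCm38.p6), another build than the authors'; figures were drawn with matplotlib 3.10.9.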

Additional observations from a re-analysis of the deposited data

How the results depend on the processing

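Over 17 alternatives, 678 of 710 fold changes of single lysosomal genes kept their direction and their side of the threshold, 19 lost the call, 4 gained one and 9 changed sign. With quantile normalization Tpp1 turned to -0.099, Asah1 to -0.039, Idua to -0.070 and Scarb2 to -0.015, and with median-of-ratios scaling Tpp1 to -0.073, Psap to -0.023 and Idua to -0.036. Tpp1 ranged from -0.0044 (without knockout replicate 1) to 0.026 with 1 library left out and was at -0.0083 without both libraries that stand apart. Of these only Tpp1 with quantile normalization passed the threshold. The members that rose numbered 30 to 34 and those that fell 4 to 6; with the replicate block 33 rose and 4 fell. Same-numbered libraries were not taken as pairs: their deviations from the group means correlated at 0.107, 0.124 and 0.020, and not every library matched its own number best. The median of the members (0.42) was 0.45 and 0.46 with pseudocounts of 0.1 and 0.01, 0.34 with median-of-ratios scaling, 0.30 with quantile normalization, 0.46 with voom, and between 0.38 and 0.45 with 1 library left out; voom called 4727 genes higher and 2761 lower. The ratio of summed FPKM was 1.31 with median-of-ratios scaling. Of the further hydrolases 7 fell with quantile normalization and 5 without both libraries that stand apart, against 3. Of the sorting genes 3 to 7 fell with 1 library left out. Of the regulators 3 fell with median-of-ratios scaling, 4 with quantile normalization, 1 each with no filter, the replicate block, voom and both those libraries left out, and 0 to 1 with 1 library left out. Tfeb had no value with a mean of at least 5 FPKM or without knockout replicate 1 or 3, where its mean fell under the filter. Every member had at least 194 reads in each library. There were 3 libraries a group, of unknown independence.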
